A study of Homo sapiens with 18 samples.

Results

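Matrix metalloproteinases (MMPs) are zinc-dependent proteases that cut the proteins of the extracellular matrix, and the tissue inhibitors of metalloproteinases (TIMPs) bind them and block their activity. Most MMPs are secreted as inactive precursors and are activated by other proteases, while the membrane-type MMPs stay at the cell surface and can activate others. Senescent fibroblasts are known for releasing MMPs together with cytokines and chemokines, a secretion called the senescence-associated secretory phenotype. The genes described are 6 MMPs (MMP1, MMP2, MMP3, MMP10, MMP12 and MMP14) and 3 TIMPs (TIMP1, TIMP2 and TIMP3), 9 of the 28266 gene rows of the count table. They were taken by their symbols, from a list made with earlier results of these data known.

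The 18 libraries came from IMR90 ER:RAS cells, a line of human lung fibroblasts infected with a retrovirus that encodes oncogenic RAS (G12V) fused to the ligand-binding part of the estrogen receptor. All 6 groups carried this fusion. Cells received 100 nM 4-hydroxytamoxifen (4OHT), which switches the fusion on and drives oncogene-induced senescence, or DMSO, for 7 days, and are called senescent and control cells here. They then received DMSO, IMP1088 (at 300 nM) or DDD86481 (at 1.5 µM) for 3 days and were collected on day 10, with 3 libraries for each of the 6 groups. IMP1088 and DDD86481 inhibit N-myristoyltransferases (NMT), the enzymes that attach the fatty acid myristate to the amino terminus of proteins. No group had 4OHT without the fusion, so 4OHT and RAS activity cannot be told apart. The labels do not say that the replicates were separate cultures. The study's legend to a heatmap of expression under these treatments gives 3 replicates and counts them as independent experiments. P-values measure the spread between these libraries.

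Libraries held between 16143716 and 23189950 counts, and 14341 genes passed the filter on low counts, all 9 MMP and TIMP genes among them. Levels are given as CPM (counts relative to the TMM-scaled library size) unless stated per kilobase, and a gene was called where edgeR's quasi-likelihood test gave a Benjamini-Hochberg adjusted p under 0.05. All 10 lung fibroblast markers examined were detected. They summed to 24831 to 31466 CPM in control DMSO, 16646 to 17064 CPM in senescent DMSO and 11559 to 12347 CPM in senescent cells with either inhibitor, and 8 of them were called lower and VIM higher (1.21 ± 0.093, edgeR adjusted p = 3.69e-10) in senescent than in control DMSO cells. VIM alone made up 4786 to 5534 CPM of the sum in control DMSO and 11252 to 11938 CPM of it in senescent DMSO libraries. Of 5 epithelial markers KRT5 and SFTPC were at 0 in every library, and the list summed to at most 1.54 CPM. The 6 leukocyte and macrophage markers summed to at most 1.49 CPM. Of them CSF1R was called higher in senescent DMSO cells (3.59 ± 0.74, edgeR adjusted p = 0.000228), at 14 to 17 counts against 0 to 4. CD14 was not called. The 4 endothelial markers summed to between 8.28 and 55.3 CPM, with CDH5, PECAM1 and VWF higher and TEK lower in senescent DMSO cells. The part of all these markers in the results was not tested. Control DMSO replicate 3 stood apart from replicates 1 and 2 of its group, with less MMP2, TIMP2 and TIMP3 and more MMP1 and TIMP1.

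**Figure D1:**
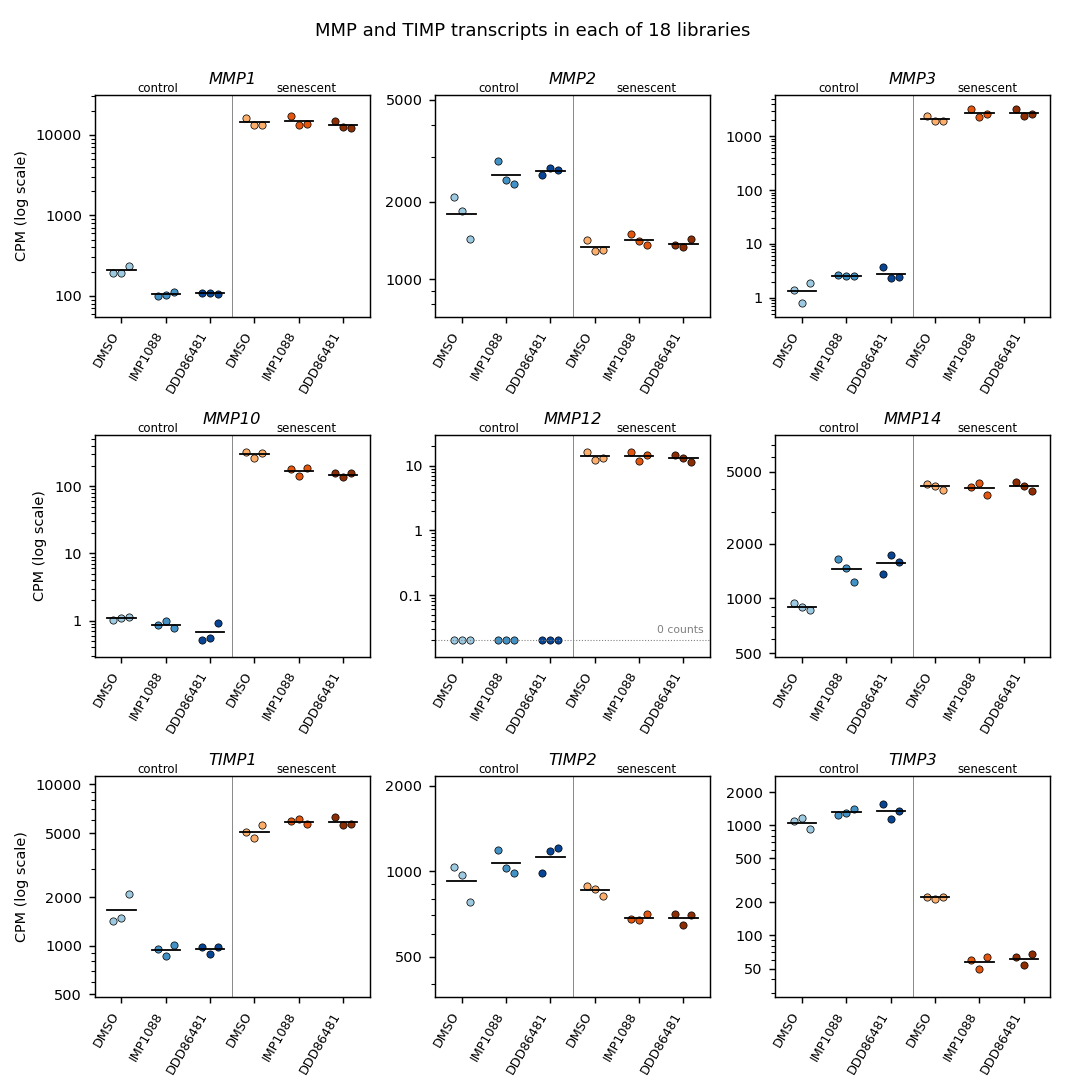
CPM of each of the 9 genes on a log axis in 18 libraries, with 1 point per library, a line at the mean of 3 and control cells left of the divider; libraries with 0 counts sit on the dotted line. MMP1 lies between 99.7 and 237 CPM in control cells and between 12230 and 17345 CPM in senescent cells, and TIMP3 falls from 215 to 225 CPM in senescent DMSO cells to between 49.6 and 67.8 CPM with either inhibitor.

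The first comparison asked how these genes differ between senescent and control cells in DMSO. Of the 9 genes, 6 were called higher and 2 lower, against 32.5% of all tested genes called higher and 36% called lower. MMP1, MMP3, MMP10, MMP12, MMP14 and TIMP1 rose, MMP2 and TIMP3 fell, and TIMP2 did not pass the test. MMP12 had no counts in control libraries and passed the filter only through senescent ones, so it could hardly have been called lower. The median log2 fold change of the 9 was 2.21, the same with MMP12 set to its lower bound, beside -0.05 for all tested genes. For the 12 other MMP and TIMP genes tested it was 0.22. As the 9 were chosen with earlier results of these data known, their counts and median are a description and no test of the family. In bulk libraries such as these, fewer cells of a type and less RNA per cell cannot be told apart.

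MMP1, the interstitial collagenase that cuts fibrillar collagen, measured 192, 192 and 237 CPM in the control DMSO libraries and 16223, 13448 and 13077 CPM in the senescent DMSO libraries. The groups were far apart, and the rise was 68.9-fold (log2 fold change 6.11 ± 0.15 SE, edgeR adjusted p = 7.33e-18). MMP1 alone took 1.17 to 1.45% of all counts of a senescent DMSO library, against 0.0205 to 0.0250% in control DMSO cells.

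The stromelysins MMP3 and MMP10, which cut proteoglycans, laminin and fibronectin and can activate other MMPs, were close to silent in control cells. MMP3 was at 1.37, 0.805 and 1.89 CPM (20 to 38 counts) in control DMSO and at 2416, 1903 and 1946 CPM in senescent DMSO cells. This was the largest fitted rise among the 8 of these genes with counts in both groups, at 1560-fold (10.61 ± 0.25, edgeR adjusted p = 3.98e-18). MMP10 went from 1.01, 1.09 and 1.14 CPM to 319, 265 and 314 CPM (8.11 ± 0.17, edgeR adjusted p = 6.45e-19). A transcript word of 75 bases, the read length given in the study's methods, is rarely shared by the pair. Only 22 such words (1.19% of those of MMP3 and 1.27% of those of MMP10) occur in both, so most reads can be assigned to one or the other.

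MMP12, the macrophage elastase, had 0 counts in all 9 control libraries, with or without inhibitor. The senescent DMSO libraries held 263, 198 and 242 counts, or 16.2, 12.3 and 13.3 CPM. Against the 3 counts that a count of 0 allows in each control library, this is at least 107-fold higher (edgeR adjusted p = 1.39e-11).

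MMP14, a membrane-type MMP that cuts collagen at the cell surface and activates the precursor of MMP2, was already abundant in control DMSO cells at 943, 894 and 859 CPM. It reached 4283, 4174 and 3974 CPM in senescent DMSO cells, 4.61-fold higher (2.21 ± 0.11, edgeR adjusted p = 6.63e-13). MMP2, a gelatinase that degrades denatured collagen and basement membrane, moved the other way. Its control DMSO libraries held 2089, 1843 and 1433 CPM and its senescent DMSO libraries 1415, 1286 and 1294 CPM. The groups did not overlap, but control replicate 3 lay just above the highest senescent library (-0.43 ± 0.11, edgeR adjusted p = 0.00256).

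The 3 inhibitors each behaved differently. TIMP1, a broad inhibitor of secreted MMPs, measured 1427, 1487 and 2090 CPM in control DMSO and 5087, 4627 and 5603 CPM in senescent DMSO cells, a 3.06-fold rise (1.61 ± 0.12, edgeR adjusted p = 4.22e-10). TIMP3, which binds to the matrix and also inhibits proteases of the ADAM and ADAMTS families, stood at 1080, 1169 and 917 CPM in control DMSO cells and at 222, 215 and 225 CPM in senescent DMSO cells. It was 4.78-fold lower there (-2.26 ± 0.13, edgeR adjusted p = 2.71e-12). TIMP2, which inhibits MMP2 and with MMP14 takes part in its activation, had overlapping groups of 1034, 969 and 778 against 888, 866 and 819 CPM. Its difference did not pass the test (-0.11, 95% confidence interval -0.34 to 0.11, edgeR adjusted p = 0.354). It was called lower with upper quartile scaling (-0.27, adjusted p = 0.0299) and without control DMSO replicate 3 (-0.23, adjusted p = 0.0394).

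Levels of different genes can be compared only per length, for which CPM was divided by the kilobases of each gene's merged exons. In control DMSO cells the order was TIMP1 (1154 ± 253 CPM per kilobase, SD, n = 3), MMP2 (380 ± 70.4), TIMP3 (230 ± 27.8), MMP14 (194 ± 9.10), TIMP2 (149 ± 21.4) and MMP1 (75.6 ± 9.47), and the means of MMP3, MMP10 and MMP12 were under 1. The ranges of the neighbours TIMP3 and MMP14 overlapped there, at 199 to 254 and 186 to 204 CPM per kilobase, as did those of MMP3 and MMP10. In senescent DMSO cells MMP1 led at 5204 ± 628 CPM per kilobase, followed by TIMP1 (3531 ± 338), MMP3 (1126 ± 153), MMP14 (896 ± 33.8), MMP2 (283 ± 15.3), MMP10 (170 ± 17.0), TIMP2 (138 ± 5.70), TIMP3 (48 ± 1.12) and MMP12 (7.67 ± 1.12). No ranges of neighbours in this order overlapped, but MMP10 and TIMP2 changed places when the length of the longest transcript was used. With that length TIMP2 stood before MMP14 and TIMP3 in control DMSO cells.

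Summed over all MMPs in the table, the control DMSO libraries held 594 to 737 CPM per kilobase and the senescent DMSO libraries 7185 to 8690. MMP2 made up 56.6% ± 4.68 (SD, n = 3) of that sum in control DMSO cells and 3.68% ± 0.192 in senescent DMSO cells, while the share of MMP1 was 11.5% ± 2.7 and 67.3% ± 0.856. TIMP1 made up 74.6% ± 5.99 of the summed TIMP level in control DMSO cells and 94.9% ± 0.537 in senescent DMSO cells. The ratio of the MMP sum to the TIMP sum was 0.530, 0.467 and 0.335 in the control DMSO libraries and 2.34, 2.16 and 1.77 in the senescent DMSO libraries. These are sums of transcript levels, given as a description, and say nothing of protein or activity.

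**Figure D2:**
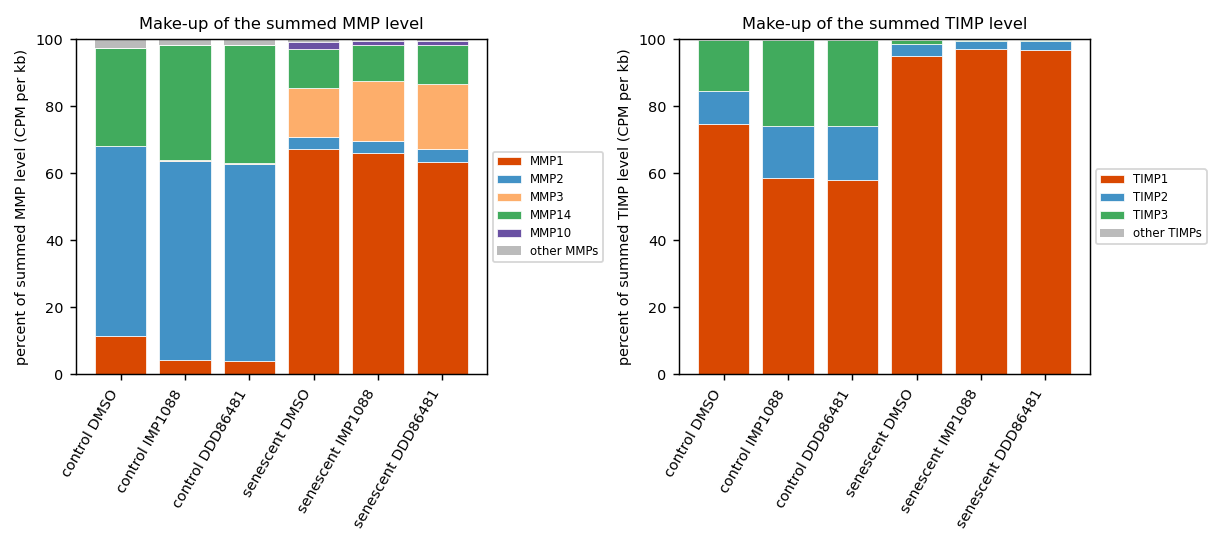
Mean share (percent, 3 libraries a group) that each gene takes of the MMP level (left) and of the TIMP level (right), both summed in CPM per kilobase. MMP2 and MMP14 fill most of the MMP bar in control cells and MMP1 and MMP3 most of it in senescent cells, where TIMP1 fills 94.9 to 97.0% of the TIMP bar.

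MMP10, MMP1, MMP3 and MMP12 are neighbours on chromosome 11. On GRCh38 RefSeq places MMP10 at chr11:102770502-102780628, MMP1 at chr11:102789919-102798160, MMP3 at chr11:102835801-102843609 and MMP12 at chr11:102862736-102874982, within a run of 9 MMP genes that spans 435.2 kilobases. The other genes of the run are MMP7, MMP20, MMP27, MMP8 and MMP13, of which MMP7 and MMP8 passed the filter. All 6 tested genes of the run were called higher in senescent DMSO cells, against 32.5% of all tested genes. MMP7 and MMP12 had 0 counts in control DMSO libraries and passed the filter only through senescent libraries, so they could hardly have been called lower. The nearest tested genes outside it were TMEM123, 67.7 kilobases away (-0.16, edgeR adjusted p = 0.149), and DCUN1D5, 95 kilobases away on the other side (0.55, edgeR adjusted p = 0.00145). Part of MMP1 (8.14% of its exonic bases) and of MMP3 (1.73%) is overlapped on the opposite strand by the pseudogene WTAPP1. WTAPP1 had 503 to 625 counts in senescent DMSO libraries and 6 to 23 in control DMSO libraries, few beside the 216023 to 262786 counts of MMP1 in senescent DMSO libraries, and without the strand setting of the counting its reads cannot be separated from theirs. The remaining genes lie elsewhere, MMP2 at chr16:55478830-55506691, MMP14 at chr14:22836585-22847758, TIMP1 at chrX:47582436-47586789, TIMP2 at chr17:78852977-78925387 and TIMP3 at chr22:32801705-32863041.

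Of the 9 genes, RefSeq promoter windows were at hand for MMP10, MMP14, TIMP1 and TIMP3. The windows below are the 250 bases before the start site of MMP10 and TIMP3, the pair of these genes that fell most with the inhibitors in senescent cells, and of MMP7, the other gene of the chromosome 11 run that fell with both. They lie at chr11:102780629-102780878 (minus strand), chr22:32801455-32801704 (plus strand) and chr11:102530748-102530997 (minus strand) of GRCh38.p14, are written 5′ to 3′ along the gene, and carry in capitals the letters TGAGTCA, a binding sequence of the transcription factor AP-1, which was searched on both strands.
MMP10: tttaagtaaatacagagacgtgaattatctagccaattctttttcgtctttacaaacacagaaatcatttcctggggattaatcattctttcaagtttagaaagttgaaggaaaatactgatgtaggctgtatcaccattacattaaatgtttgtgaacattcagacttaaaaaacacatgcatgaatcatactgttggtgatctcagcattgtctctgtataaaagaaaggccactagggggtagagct
TIMP3: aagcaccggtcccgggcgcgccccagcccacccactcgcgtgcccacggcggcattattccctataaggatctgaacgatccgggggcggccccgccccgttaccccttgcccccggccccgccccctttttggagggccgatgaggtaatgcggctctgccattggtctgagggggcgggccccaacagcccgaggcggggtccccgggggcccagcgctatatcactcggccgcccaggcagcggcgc
MMP7: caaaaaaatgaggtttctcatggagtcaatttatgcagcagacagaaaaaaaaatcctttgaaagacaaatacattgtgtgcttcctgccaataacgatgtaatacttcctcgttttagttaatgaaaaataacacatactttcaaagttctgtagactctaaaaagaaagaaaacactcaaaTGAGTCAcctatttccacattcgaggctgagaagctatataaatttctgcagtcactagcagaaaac
The match in MMP7 lies 67 to 61 bases before the start site; the windows of MMP10, MMP14, TIMP1 and TIMP3 hold none. Those of MMP8, MMP20 and MMP27, of the same run as MMP7, hold none either. Of all 35093 windows of this length in the table, 4.2% hold a match, and of the windows of tested genes 3.18%. The MMP10 window is 34.4% G and C and the MMP7 window 33.6%, against 72.4% for TIMP3 and a median of 64.4% over the windows of tested genes. A match is a matter of letters only and shows no binding.

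The second question was what the NMT inhibitors did to these genes in senescent cells. Both comparisons used the same senescent DMSO libraries and the inhibitors were given at different concentrations, so the values are set side by side and not compared with each other. With IMP1088, 3 of the 9 genes (MMP10, TIMP2 and TIMP3) were called lower and 0 higher, against 23.9% and 20.6% of all tested genes. With DDD86481 the same 3 genes were called lower and MMP3 higher, against 23.1% and 20.1% of all tested genes. The median log2 fold change of the 9 genes was 0.04 with IMP1088 and -0.08 with DDD86481, and that of all tested genes was -0.04 in both.

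TIMP3 fell most. Its 222, 215 and 225 CPM in the senescent DMSO libraries became 59.6, 49.6 and 63.8 CPM with IMP1088 and 63.0, 53.6 and 67.8 CPM with DDD86481. Every treated library was far under every DMSO library, and the fall was 3.83-fold with IMP1088 (-1.94 ± 0.13, edgeR adjusted p = 7.25e-10) and 3.59-fold with DDD86481 (-1.84 ± 0.13, edgeR adjusted p = 1.53e-09). The share of TIMP3 in the summed TIMP level per kilobase was 1.3% ± 0.0873 (SD, n = 3) in senescent DMSO cells and 0.300% ± 0.0481 and 0.320% ± 0.0381 with IMP1088 and DDD86481.

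MMP10 went from 319, 265 and 314 CPM in senescent DMSO cells to 181, 143 and 190 CPM with IMP1088 (-0.80 ± 0.11, edgeR adjusted p = 6.89e-06). With DDD86481 it measured 155, 136 and 156 CPM (-1.0 ± 0.11, edgeR adjusted p = 5.25e-07). The groups did not overlap, yet the lowest treated library, at 136 CPM, still lay far above the 1.14 CPM of the highest control DMSO library. TIMP2 was lower by a smaller step, from 888, 866 and 819 CPM to 678, 675 and 707 CPM with IMP1088 (-0.32 ± 0.11, edgeR adjusted p = 0.019) and to 710, 649 and 702 CPM with DDD86481 (-0.32 ± 0.11, edgeR adjusted p = 0.0197). The groups stayed apart, but the TIMP2 calls were lost without senescent DMSO replicate 1 or 2 (adjusted p = 0.0662 and 0.0503 for IMP1088, 0.0683 and 0.0524 for DDD86481), without IMP1088 replicate 1 or 2 (0.0573 and 0.058) and without DDD86481 replicate 2 (0.0782).

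MMP3 had its highest values in treated senescent libraries. They were 3151, 2269 and 2635 CPM with IMP1088, which overlapped the 1903 to 2416 CPM in DMSO and did not pass the test (0.36, 95% confidence interval 0.04 to 0.69, edgeR adjusted p = 0.0653), and 3233, 2426 and 2572 CPM with DDD86481, which did (0.39 ± 0.16, edgeR adjusted p = 0.0474). Both calls changed with the settings. The DDD86481 call was lost with upper quartile scaling (adjusted p = 0.0529) and without senescent DMSO replicate 2 (0.161) or 3 (0.146) or DDD86481 replicate 1 (0.227) or 3 (0.0526), and the IMP1088 difference passed with 7 of 14 alternatives, among them without senescent DMSO replicate 1 (0.036) and without IMP1088 replicate 2 (0.0353).

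The other 5 genes did not pass the test with either inhibitor, and their intervals bound what could have been missed. For MMP1 the log2 difference was 0.06 (95% confidence interval -0.20 to 0.31) with IMP1088 and -0.11 (-0.36 to 0.14) with DDD86481. For MMP14 the intervals ran from -0.26 to 0.20 and from -0.22 to 0.23, for MMP2 from -0.15 to 0.33 and from -0.19 to 0.28, and for MMP12, with 188 to 313 counts a library, from -0.32 to 0.39 and from -0.44 to 0.27. TIMP1 was at 5900, 6099 and 5650 CPM with IMP1088 and 6309, 5632 and 5691 CPM with DDD86481, all above the highest DMSO library at 5603 CPM, but by little (0.20, 95% confidence interval -0.05 to 0.46 for both, edgeR adjusted p = 0.184 and 0.189). The TIMP1 difference with IMP1088 passed in 2 of 14 alternatives, among them the fit of the compared groups alone (0.24, adjusted p = 0.00572). With DDD86481 it passed in 1 of 14.

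The ratio of the MMP sum to the TIMP sum per kilobase remained above 1 in every senescent library. It was 1.73 to 2.23 with IMP1088 and 1.75 to 1.90 with DDD86481, and both ranges overlapped the 1.77 to 2.34 of senescent DMSO cells. In control cells the ratio was 0.335 to 0.530 with DMSO, 0.709 to 0.917 with IMP1088 and 0.755 to 0.957 with DDD86481. Neither range with inhibitor overlapped that of control DMSO cells. Among the MMPs, MMP3 made up 14.5% ± 0.478 (SD, n = 3) of the sum in senescent cells given DMSO, 17.7% ± 1.18 in those given IMP1088 and 19.4% ± 1.16 in those given DDD86481.

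The same inhibitors were given to control cells, where both comparisons again share their DMSO libraries. With IMP1088, 3 of the 9 genes were called higher and 2 lower, against 16.3% and 17.4% of all tested genes. With DDD86481, 5 were called higher and 2 lower, against 17.8% and 18.7%. MMP1 and TIMP1 fell with both, and MMP2, MMP3 and MMP14 rose with both. Fitted with the compared groups alone, the calls of MMP2 (0.52, adjusted p = 0.0564) and MMP3 (0.93, adjusted p = 0.055) with IMP1088 were lost, as were those of MMP3 (1.05, adjusted p = 0.0514), TIMP2 (0.28, adjusted p = 0.193) and TIMP3 (0.35, adjusted p = 0.123) with DDD86481.

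MMP1 in control cells dropped from 192, 192 and 237 CPM to 99.7, 104 and 113 CPM with IMP1088 (-0.97 ± 0.12, edgeR adjusted p = 6.65e-06) and to 109, 110 and 105 CPM with DDD86481 (-0.94 ± 0.12, edgeR adjusted p = 9.6e-06). TIMP1 dropped from 1427, 1487 and 2090 CPM to 950, 866 and 1009 CPM (-0.83 ± 0.12, edgeR adjusted p = 3.48e-05) and to 988, 892 and 977 CPM (-0.81 ± 0.12, edgeR adjusted p = 4.24e-05). No treated library of either gene reached the lowest DMSO library. MMP14 rose from 943, 894 and 859 CPM to 1641, 1474 and 1234 CPM with IMP1088 (0.69 ± 0.11, edgeR adjusted p = 7.17e-05) and to 1364, 1732 and 1598 CPM with DDD86481 (0.80 ± 0.11, edgeR adjusted p = 1.47e-05). These remained under the 3974 CPM of the lowest senescent DMSO library.

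MMP2 rose from 1433 to 2089 CPM in control DMSO cells to 2342 to 2898 CPM with IMP1088 (0.52 ± 0.11, edgeR adjusted p = 0.00168) and 2551 to 2723 CPM with DDD86481 (0.56 ± 0.11, edgeR adjusted p = 0.000742). MMP3 stayed near silence, at 2.66, 2.49 and 2.53 CPM with IMP1088 (0.94 ± 0.27, edgeR adjusted p = 0.012) and 3.65, 2.30 and 2.38 CPM with DDD86481 (1.06 ± 0.27, edgeR adjusted p = 0.00517). The MMP3 call for IMP1088 was lost without control DMSO replicate 2 (0.68, adjusted p = 0.0713). TIMP2 and TIMP3 lay near the threshold. TIMP2 was not called with IMP1088 (0.20, edgeR adjusted p = 0.155) and called with DDD86481 (0.28 ± 0.11, edgeR adjusted p = 0.0455), a call lost in 8 of 14 alternatives, among them without control DMSO replicate 2 or 3 (adjusted p = 0.0591 and 0.204) and without DDD86481 replicate 2 or 3 (0.139 and 0.165). Without control DMSO replicate 1 the TIMP2 difference with IMP1088 passed (0.29, adjusted p = 0.0452). TIMP3, at 1243, 1290 and 1397 CPM with IMP1088 and 1567, 1140 and 1350 CPM with DDD86481 against 1080, 1169 and 917 CPM in DMSO, was not called with the first (0.31, edgeR adjusted p = 0.0529) and called with the second (0.36 ± 0.12, edgeR adjusted p = 0.0261), again not without control DMSO replicate 3 (0.27, adjusted p = 0.099) or DDD86481 replicate 1 (0.25, adjusted p = 0.157) or 3 (0.36, adjusted p = 0.0559). The TIMP3 difference with IMP1088 passed without control DMSO replicate 2 (0.40, adjusted p = 0.0316). With the replicate number as a block, which pairs the libraries of the IMP1088 comparison, TIMP3 was called (0.31, adjusted p = 0.0488). MMP10, at 10 to 27 counts a library, was not called with either inhibitor (-0.30 and -0.65, edgeR adjusted p = 0.375 and 0.0628), though without control DDD86481 replicate 3 it was (-0.98, adjusted p = 0.0213), and MMP12 gave no fold.

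**Figure D3:**
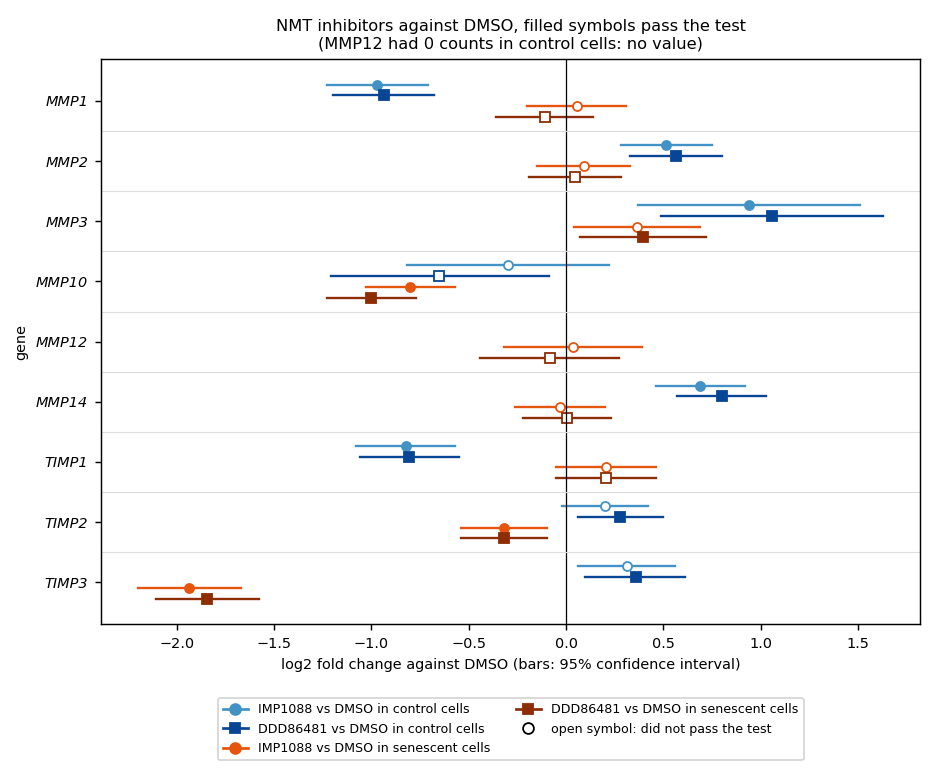
Log2 fold change of each gene against DMSO with a 95% confidence interval, for IMP1088 (circles) and DDD86481 (squares) in control (blue) and senescent cells (orange and brown); filled symbols pass the test. TIMP3 lies at -1.94 and -1.84 in senescent cells and at 0.31 and 0.36 in control cells, and the symbols of MMP1, MMP2, MMP14 and TIMP1 are filled in control cells and open in senescent cells.

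Whether an inhibitor acted differently in senescent and control cells was tested directly, as the difference of the effects. For IMP1088 the difference was called higher for 2 and lower for 3 of the 9 genes, against 12.1% and 14.2% of all tested genes, and for DDD86481 for 2 and 4, against 14.4% and 15.9%. TIMP3 differed most, with an effect lower in senescent cells by a log2 difference of -2.25 ± 0.18 for IMP1088 (edgeR adjusted p = 2.88e-08) and -2.20 ± 0.18 for DDD86481 (edgeR adjusted p = 4.32e-08). The effects on MMP1 (1.03 ± 0.17 and 0.83 ± 0.17) and TIMP1 (1.03 ± 0.17 and 1.01 ± 0.17) were higher in senescent cells, where neither gene passed the test. Those on MMP14 (-0.72 ± 0.15 and -0.80 ± 0.15) and TIMP2 (-0.52 ± 0.15 and -0.60 ± 0.15) were lower. For MMP2 the difference passed with DDD86481 (-0.52 ± 0.16, edgeR adjusted p = 0.0205) and not with IMP1088 (-0.42, edgeR adjusted p = 0.0569). Leaving out single libraries moved these calls, since the MMP2 difference for DDD86481 was lost without senescent DMSO replicate 1 (adjusted p = 0.0558) or control DDD86481 replicate 2 or 3 (0.0644 and 0.0587), that for IMP1088 passed without control DMSO replicate 1 (0.00709), and that of TIMP2 for IMP1088 was lost without control IMP1088 replicate 1 (0.0797). MMP10 fell in senescent cells only by the test against DMSO, and the difference to control cells did not pass (-0.50 and -0.35, edgeR adjusted p = 0.186 and 0.393); nor did that of MMP3 (-0.58 and -0.67, edgeR adjusted p = 0.181 and 0.114), except for DDD86481 without control DMSO replicate 3 (-0.95, adjusted p = 0.0441).

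The other 17 MMPs and TIMP4 give the family around these genes. Of the 12 that passed the filter, 6 were called higher in senescent DMSO cells (MMP7, MMP8, MMP9, MMP15, MMP17 and MMP25), 5 lower (MMP11, MMP19, MMP23B, MMP24 and TIMP4) and MMP16 was not called, with a median log2 fold change of 0.22, beside 32.5% of all tested genes called higher and 36% lower. MMP13, MMP20, MMP21, MMP26, MMP27 and MMP28 did not pass the filter, and MMP26 had 0 counts in every library. Genes that passed the filter only through senescent libraries, such as MMP7 and MMP9, could hardly have been called lower. MMP23B passed only through control libraries and could hardly have been called higher. MMP7, the matrilysin, had 0 counts in the control DMSO libraries and 19.3, 20.8 and 19.6 CPM in senescent DMSO cells, at least 153-fold higher (edgeR adjusted p = 9.86e-14). MMP9, a gelatinase, had 1, 4 and 1 counts in control DMSO and 47.3, 31.0 and 34.1 CPM in senescent DMSO cells (edgeR adjusted p = 3.92e-14). MMP23B had 12 to 16 counts in control DMSO libraries and 0 in all 3 senescent DMSO libraries, at least 3.36-fold lower.

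In senescent cells 3 of these 12 genes were called higher and 4 lower with each inhibitor, against 20.6% and 23.9% of all tested genes with IMP1088 and 20.1% and 23.1% with DDD86481. MMP7, MMP9 and MMP11 fell with both, joined by MMP17 with IMP1088 and MMP8 with DDD86481, and MMP19 and TIMP4 rose with both. The third gene in the count of those higher is MMP23B, which had 0 counts in senescent DMSO cells and 6, 3 and 4 counts with IMP1088, barely over the 3 counts that a count of 0 allows. With DDD86481 it had 3, 1 and 1 counts, which is at or under the limit that a count of 0 allows, so no rise is read there. In control cells MMP8 and MMP15 were called higher with each, TIMP4 lower with IMP1088 and MMP24 lower with both, against 16.3% higher and 17.4% lower of all tested genes with IMP1088 and 17.8% and 18.7% with DDD86481. The MMP24 call with IMP1088 (-0.77 ± 0.29, edgeR adjusted p = 0.0491) was lost with the replicate block that pairs these libraries (-0.78, adjusted p = 0.0542). MMP7 fell to 7.00, 9.22 and 8.63 CPM with IMP1088 (-1.26 ± 0.15, edgeR adjusted p = 5.39e-06) and to 8.14, 7.57 and 6.93 CPM with DDD86481 (-1.40 ± 0.15, edgeR adjusted p = 2.14e-06), with every treated library under every DMSO library. MMP9 fell less (-0.48 ± 0.17 and -0.62 ± 0.17, edgeR adjusted p = 0.026 and 0.00624). MMP11, the stromelysin-3 of stromal cells, was at 18.6 to 23 CPM in senescent DMSO cells and at 7.40 to 10.3 and 7.17 to 8.83 CPM with IMP1088 and DDD86481 (-1.26 ± 0.15 and -1.31 ± 0.15, edgeR adjusted p = 1.23e-06 and 8.63e-07), a fall that was larger than in control cells by test (-1.05 ± 0.20 and -1.08 ± 0.20).

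MMP19 and TIMP4 went the opposite way from senescence and inhibitor. MMP19 was at 18.9 to 25.0 CPM in control DMSO, 8.13 to 9.07 CPM in senescent DMSO (-1.35 ± 0.12, edgeR adjusted p = 2.92e-09), and 18.4 to 21.5 CPM with IMP1088 and 18.8 to 21.0 CPM with DDD86481 in senescent cells (1.21 ± 0.12 and 1.19 ± 0.12, edgeR adjusted p = 1.07e-07 and 1.67e-07). The treated senescent libraries thus lay within or next to the range of control DMSO cells. TIMP4, at 0.846 to 3.80 CPM over all libraries, rose likewise in senescent cells (1.20 ± 0.26 and 1.45 ± 0.25, edgeR adjusted p = 0.000695 and 9.81e-05). In exons, 17.6% of MMP19 and 14.2% of TIMP4 bases are overlapped by genes on the opposite strand. The share is 18.4% for MMP9, 22.1% for MMP24 and 30.6% for MMP25. Without the strand setting of the counting, reads of the overlapping genes cannot be separated from theirs.

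**Figure D4:**
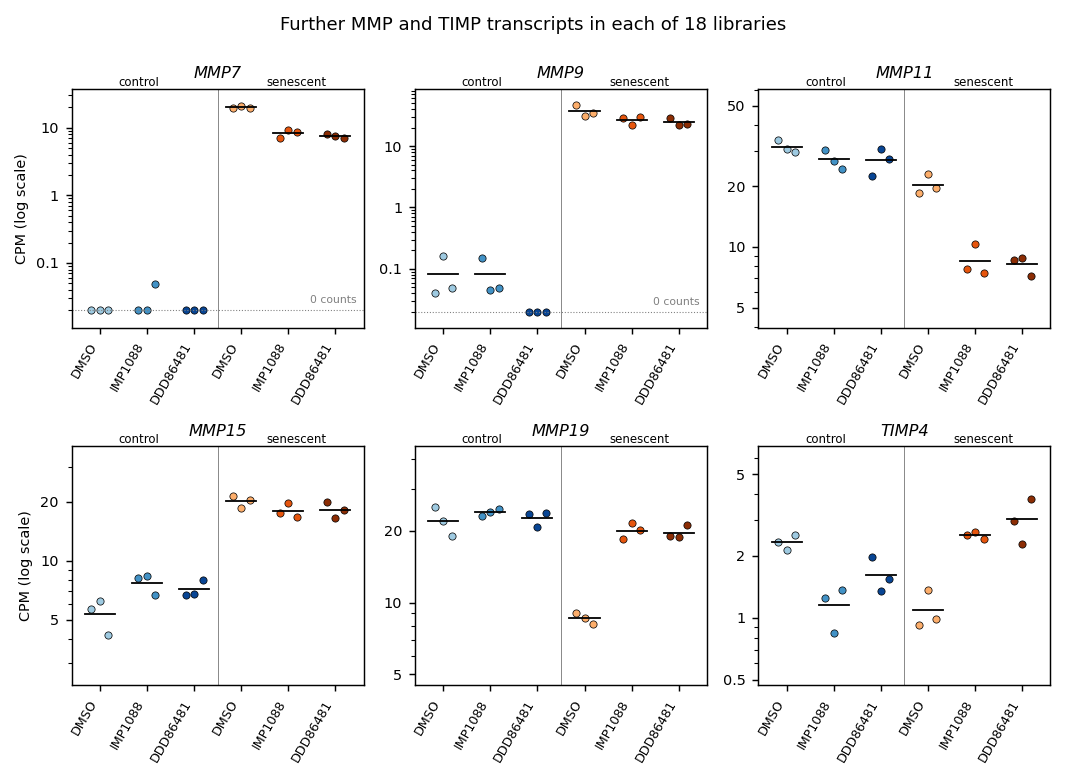
CPM of 6 further MMP and TIMP genes on a log axis in 18 libraries, drawn like the plot of the 9 genes; the mean line is left out where a library had 0 counts. MMP7 lies at 19.3 to 20.8 CPM in senescent DMSO cells and at 6.93 to 9.22 CPM with either inhibitor, and MMP19 at 8.13 to 9.07 CPM and 18.4 to 21.5 CPM.

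Of a list of 17 activators, inducers and other regulators of MMPs, which also holds matrix proteins such as THBS1 and TNC, 16 were tested. In senescent DMSO cells 7 were called higher and 6 lower, against 32.5% and 36% of all tested genes. On the log2 scale the plasminogen activators PLAU (2.27 ± 0.14) and PLAT (1.24 ± 0.13) rose, as did PLAUR (3.07 ± 0.11), the receptor of PLAU. The MMP inhibitors RECK (-2.23 ± 0.091) and A2M (-4.19 ± 0.19) fell, and TFPI2, an inhibitor of plasmin, rose (5.82 ± 0.24). With IMP1088 and DDD86481 in senescent cells 0 of the 16 were called higher and 10 and 11 lower, with medians of -0.63 and -0.64. The shares of all tested genes were 20.6% higher and 23.9% lower for IMP1088, and for DDD86481 20.1% and 23.1%. PLAT fell most (-2.32 ± 0.14 and -2.42 ± 0.14), followed by the matrix proteins THBS1 (-2.28 ± 0.21 and -2.13 ± 0.21) and TNC (-1.99 ± 0.26 and -1.62 ± 0.25). RECK fell again (-0.80 ± 0.094 and -0.74 ± 0.094), and PLAUR was not called (-0.10 and -0.08). In control cells PLAUR fell with both (-1.06 ± 0.10 and -0.99 ± 0.10).

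Of 18 matrix proteins that MMPs cut, 2 were called higher and 11 lower in senescent DMSO cells (32.5% and 36% of all tested genes), led by DCN (-8.62 ± 0.13), ELN (-7.12 ± 0.36) and COL3A1 (-3.64 ± 0.17). In senescent cells 11 of them were called lower and 1 higher with IMP1088 (23.9% and 20.6% of all tested genes) and 13 lower and 1 higher with DDD86481 (23.1% and 20.1%), with medians of -0.67 and -0.60. COL1A1, COL1A2, COL3A1 and DCN are also among the lung fibroblast markers, whose sums are given above; their part in the counts was not tested. COL1A1 fell with both (-1.95 ± 0.18 and -1.51 ± 0.18), as did COL3A1 and VCAN, and COL1A2 was the one that rose (0.97 ± 0.14 and 1.25 ± 0.14). Of 27 tested ADAM and ADAMTS proteases, families that hold targets of TIMP3, 8 were called higher and 12 lower in senescent DMSO cells, against 32.5% and 36% of all tested genes. In senescent cells 5 were called higher and 11 lower with each inhibitor, against 20.6% and 23.9% of all tested genes with IMP1088 and 20.1% and 23.1% with DDD86481. ADAM22 rose most, from 4, 3 and 3 counts in DMSO to 40, 35 and 24 with IMP1088 (edgeR adjusted p = 9.57e-06) and 22, 28 and 19 with DDD86481 (edgeR adjusted p = 0.000123). ADAMTS8 (-2.02 ± 0.41 and -1.66 ± 0.39) and ADAM19 (-1.77 ± 0.14 and -1.66 ± 0.13) fell with both. ADAM19 fell with both in control cells too (-1.04 ± 0.14 and -0.95 ± 0.14).

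Of 13 transcription factors of families known to bind MMP promoters (12 of the AP-1 and ETS families, and RUNX2), 8 were called higher and 2 lower in senescent DMSO cells, against 32.5% and 36% of all tested genes. In senescent cells 5 were called higher and 7 lower with IMP1088, against 20.6% and 23.9% of all tested genes. With DDD86481 it was 5 and 6, against 20.1% and 23.1%. FOSB (3.41 ± 0.49), ETS1 (1.94 ± 0.10) and FOSL1 (1.56 ± 0.15) rose most in senescent DMSO cells. The 2 called lower there were FOS (-1.46 ± 0.51) and FOSL2 (-0.96 ± 0.13). FOSL1 and ETS1 fell with IMP1088 in senescent cells (-0.58 and -0.84) and with DDD86481 (-0.64 and -0.66). FOSL1 also fell in control cells (-0.91 and -0.95), and its difference between the states did not pass (edgeR adjusted p = 0.271 and 0.286). ETS1 was not called in control cells (0.07 and 0.17). Its difference between the states passed with both (-0.91 and -0.83, edgeR adjusted p = 0.000103 and 0.000255). FOS, FOSB and JUNB rose with both inhibitors in both cell states. In control cells FOSB went from 0.564 to 0.966 CPM in DMSO to 7.38 to 16.7 CPM with IMP1088 and 4.30 to 21.8 CPM with DDD86481, a wide spread among treated libraries.

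The genes whose log2 CPM most resembled each of the 9 over the 18 libraries were found by Pearson's r, as a description, since the 18 points fall into control and senescent sets that fix much of r. INHBA, QPCT and RAC2 were nearest to MMP1 (r = 0.998, 0.998 and 0.997), CXCL5, CSF3 and PLEKHB2 to MMP3 (0.998, 0.998 and 0.997), RAC2, DCSTAMP and NRIP3 to MMP10 (0.998, 0.998 and 0.997) and MIR3142HG, LCE3D and IL1B to MMP12 (0.999, 0.998 and 0.998). Such values were common, with 1041 genes over 0.95 for MMP1, 958 for MMP3, 984 for MMP10 and 1006 for MMP12. GAS7, ZNF512B and DLC1 were nearest to TIMP3 (0.995, 0.994 and 0.994; 775 genes over 0.95), SLC16A6, BHLHE40 and PPM1H to MMP14 (0.99, 0.99 and 0.988; 283 genes) and TM4SF1, ANKRD39 and ADRM1 to TIMP1 (0.995, 0.994 and 0.994; 814 genes). MMP2 had 85 genes over 0.95, led by TRPM7, FOXRED2 and ZKSCAN8 (0.986, 0.983 and 0.98), and TIMP2 had 33, led by PIGN, MPDZ and ZCCHC14 (0.972, 0.964 and 0.963).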

How the data were processed

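Poly(A) RNA of 18 IMR90 ER:RAS samples was sequenced. The authors deposited a table of raw counts per gene symbol, with no normalization, which was used as deposited. The submitters' processing notes name DRAGEN, STAR 2.7.8a, DESeq2 1.32.0 and hg38, while the study's methods name another aligner and hg19, so the aligner, build, annotation and strand setting behind the counts are not settled. The columns of the DDD86481 libraries carry another compound code and were matched through the sample descriptions. RefSeq GRCh38.p14 gave positions and promoter windows; GENCODE on GRCh37 gave exon lengths and overlaps, by gene symbol.

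All 18 libraries entered 1 edgeR 4.0.16 quasi-likelihood fit (R 4.3.3) with 6 group means, TMM scaling and the default filter on low counts, which kept 14341 of 28266 genes and 99.962% of counts. P-values were adjusted by Benjamini-Hochberg over all tested genes in each of 7 comparisons, with a threshold of 0.05. A count of 0 was given an upper limit of 3 counts per library (0.121 to 0.187 CPM), which covers counting error only. The scripts were tested on simulated data. Alternatives were other scalings, filters, DESeq2 1.42.0, fits of the compared groups alone, a replicate block and leaving out each library.

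Replicate numbers were checked by the correlation of same-numbered libraries' deviations from their group means. It was over 0.1 for all 3 pairs only for IMP1088 against DMSO in control cells (0.394, 0.123 and 0.231), where the block value is given beside the result it changes. Named were the 9 genes, other MMPs and TIMPs past the filter, per further list up to 3 called genes with the largest change at a mean of at least 1 CPM (for senescence any gene of lists of up to 20), and the 3 genes with the most similar pattern. The values of RECK, PLAUR, COL1A2, FOSL1, ETS1 and JUNB with inhibitor in senescent cells were chosen after they were seen. So were those of FOSL1 and ETS1 with inhibitor in control cells. The genes and lists were chosen with earlier results of these data known.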

Additional observations from a re-analysis of the deposited data

Results flagged for a closer look

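The results below were marked because an inhibitor's effect against DMSO differed between senescent and control cells in the fit across all genes (log2 difference of the effects, edgeR quasi-likelihood test; 3 libraries in each of the 4 groups behind a value). For IMP1088 they were MMP1 (1.03), MMP14 (-0.72), TIMP1 (1.03), TIMP2 (-0.52), TIMP3 (-2.25), MMP8 (-1.92), MMP11 (-1.05), MMP15 (-0.68), MMP19 (1.10) and TIMP4 (2.22), with edgeR adjusted p between 2.88e-08 (TIMP3) and 0.0177 (MMP15).

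For DDD86481 they were MMP1 (0.83), MMP2 (-0.52), MMP14 (-0.80), TIMP1 (1.01), TIMP2 (-0.60), TIMP3 (-2.20), MMP8 (-2.04), MMP11 (-1.08), MMP15 (-0.56), MMP19 (1.15), MMP24 (1.53) and TIMP4 (1.97), with edgeR adjusted p between 4.32e-08 (TIMP3) and 0.0421 (MMP15). Both sets use the same DMSO libraries. Counts were low for MMP8 (12 to 49 a library), MMP24 (11 to 65) and TIMP4 (15 to 62).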

How the results depend on the processing

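The calls of MMP1, MMP2, MMP3, MMP10, MMP12, MMP14, TIMP1 and TIMP3 between senescent and control DMSO cells, and of MMP10 and TIMP3 with either inhibitor in senescent cells, held under every alternative run. Counts of the 9 genes called moved from 3 to 5 for IMP1088 in senescent cells when only the compared groups were fitted, with or without the replicate block, and from 5 to 3 (IMP1088) and 7 to 4 (DDD86481) in control cells when only the compared groups were fitted. All genes called in control cells then went from 4829 to 2716 (IMP1088) and from 5242 to 2842 (DDD86481), or 3277 with the replicate block. Leaving out 1 library gave 2 to 3 of the 9 genes called for DDD86481 in senescent cells (4 with all libraries; 2 without senescent DMSO replicate 2). Values near 0 that did not pass the test changed sign. In senescent cells these were MMP1 (-0.07 to 0.16 over libraries left out) and MMP12 (-0.08 to 0.16) with IMP1088, MMP12 (-0.18 to 0.04) with DDD86481, MMP14 with IMP1088 (0.01 with a stricter filter, 0.00 with the compared groups alone, with and without the replicate block, -0.08 to 0.03 over libraries left out) and MMP14 with DDD86481 (0.00 with DESeq2 or its size factors, -0.01 with upper quartile scaling or no filter, -0.04 to 0.05 over libraries left out); the interaction of MMP10 with DDD86481 ranged from -0.47 to 0.02. The cause of these changes was not tested. In the other comparisons the correlation of same-numbered libraries was not over 0.1 for all 3 pairs, which does not show that they were unpaired. The block changed there the calls of MMP10 (DDD86481, control: -0.67, adjusted p = 0.0449) and MMP3 (IMP1088, senescent: 0.36, adjusted p = 0.0141). Between senescent and control effects it changed those of MMP2 (IMP1088: -0.43, adjusted p = 0.0374) and MMP3 (DDD86481: -0.67, adjusted p = 0.0353). In the paired comparison, IMP1088 in control cells, the block added TIMP3 and lost MMP24 (-0.78, adjusted p = 0.0542). Upper quartile scaling shifted the senescence fold changes of all genes by a median of -0.15. Per-length levels with the longest transcript differed by more than 1 SD in 30 of 54 values. Depth limits MMP10 and MMP3 in control cells, at 10 to 70 counts a library.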
